A study of Drosophila melanogaster with 58 samples.

Results

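The Delta-class glutathione S-transferases of Drosophila melanogaster, GstD1 to GstD10, were followed through 15 diets in adult heads. The genes were chosen by symbol in the platform annotation of the array, taking for each the brightest single-gene probe set by its average over the 58 arrays. All 10 genes had 1 such probe set each, out of 11982 genes with a single-gene probe set. The series screened human medicines in flies fed pentylenetetrazole (PTZ), a convulsant that blocks GABA-A receptors. Unmated Oregon R males were kept at 30 per vial and 25 °C for 7 days on their diet, and heads were taken at an age of 10 days. All groups shared this strain, sex and age, and no doses are stated in the labels.

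The diets without PTZ were normal food and 7 single compounds. These were Levetiracetam (an antiepileptic), Glucosamine Hydrochloride (an amino sugar), Mannitol (a sugar alcohol), Olmesartan Medoxonil (an angiotensin receptor blocker, spelled as in the labels), Moxifloxacin Hydrochloride (an antibiotic), Gemfibrozil (a lipid-lowering fibrate) and Quinapril Hydrochloride (an inhibitor of angiotensin-converting enzyme). The diets with PTZ were PTZ alone and PTZ together with Oxaprozin (an anti-inflammatory drug) or with mannitol, quinapril, olmesartan, glucosamine or levetiracetam. Each group had 4 arrays, except moxifloxacin with 2. The labels do not say whether arrays of a group came from separate vials, so p-values reflect only how these arrays vary, which could be technical.

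Glutathione S-transferases join the tripeptide glutathione to reactive, electrophilic molecules, which makes these easier to excrete, and several also reduce lipid peroxides. The Delta class belongs to insects and other arthropods, and its members are known for their part in insecticide detoxification and oxidative stress. GstD1 can dechlorinate DDT, and its promoter is widely used as a reporter of the transcription factor CncC, the fly counterpart of Nrf2, which Keap1 holds in check. GstD2 acts on isothiocyanates and has long been studied for the response of its mRNA to the barbiturate pentobarbital. GstD3 encodes a protein that lacks the N-terminal stretch of the other members.

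In the RefSeq annotation the genes lie side by side on chromosome arm 3R in the order GstD10, GstD9, GstD1, a long non-coding RNA gene, and then GstD2 to GstD8. The deposited values are log2 intensities, and levels below are group means ± SD on that scale. GstD1 (probe set 1628353_at), GstD2 (1630258_at), GstD3 (1635701_at), GstD9 (1636174_at) and GstD10 (1627890_at) lay above the dimmest 40% of probe sets by mean signal. GstD4 (1626253_at), GstD5 (1634152_at), GstD6 (1626136_at), GstD7 (1624793_at) and GstD8 (1634554_at) lay within the dimmest 40%, with means over all arrays from 2.28 to 2.97. These 5 dim genes are the neighbours that end the row after GstD3. Whether the probe sets of these similar genes also bind one another's transcripts was not tested.

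The 58 arrays had medians between 3.68 and 3.85, and each array was most like another array of its own diet (highest correlation). Normal food stood apart from the other diets in transcripts foreign to the head. A list of testis and accessory gland genes, 22 of 23 measured, had a log2 summed level of 12.40 ± 0.03 in normal food, 10.83 with levetiracetam, 10.67 with moxifloxacin, 9.34 with gemfibrozil and 7.26 to 8.31 in the other 11 groups. A gut list, 15 of 22 measured, summed to 8.99 ± 0.07 in normal food and to 6.97 to 7.69 elsewhere. Photoreceptor genes, 6 of 9 measured, summed to between 14.76 and 15.12 in the 15 groups, and their median was highest in PTZ with levetiracetam (11.72, against 10.49 in normal food), the group with the highest GstD1. A fat body list, 9 of 11 measured, had medians of 8.52 in normal food, 9.42 with PTZ, 10.43 with olmesartan and 10.72 with mannitol. Its log2 sum differed less. Arrays read 14.30 in normal food, 14.44 to 14.46 with PTZ, 14.63 to 14.65 with olmesartan and 14.69 to 14.73 with mannitol. A neuron list, 6 of 8 measured, summed to 12.21 in normal food, 11.50 with PTZ and 11.01 in PTZ with mannitol. Haemocyte genes (6 of 6 measured) summed to 9.95 to 10.60 and muscle genes (6 of 8) to 11.33 to 12.35. The part of these lists in the members' changes was not tested. The hybridisation control bioB stood at an upper level on 20 arrays. These were 1 olmesartan array, 1 quinapril array and every array of 5 diets (gemfibrozil, mannitol with and without PTZ, moxifloxacin, and glucosamine with PTZ). Only olmesartan and quinapril thus had arrays at each level. Fits with the bioB level as a block take its size from these diets alone. They cannot separate bioB from a diet wholly at the upper level. Since normal food is the reference for all single compounds, the part of these transcripts in the changes from normal food was not tested, and values against the other diets are given after those comparisons.

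PTZ feeding was compared with normal food first. GstD2 rose most among the 10 genes, 7.61-fold, followed by GstD1 (2.59-fold), GstD3 (2.41-fold), GstD9 (2.02-fold) and GstD10 (1.70-fold). GstD5 rose by 0.22 and GstD4 fell by 0.23 on the log2 scale, and GstD6, GstD7 and GstD8 were not called. The members' median log2 change was 0.49, against -0.02 over all probe sets.

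GstD2 read 5.20, 5.37, 5.32 and 5.28 on the 4 normal food arrays and 8.18, 8.25, 8.18 and 8.28 on the 4 PTZ arrays. The 2 sets of arrays are far apart, and the log2 change was 2.93 ± 0.06 (SE; limma, adjusted p = 1.88e-38). GstD1 read 10.27, 10.21, 10.15 and 10.11 on normal food and 11.57, 11.57, 11.54 and 11.55 with PTZ. All PTZ arrays were above all normal food arrays, with a change of 1.37 ± 0.05 (limma, adjusted p = 2.56e-29).

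GstD3 rose from 6.24, 6.40, 6.24 and 6.29 to 7.57, 7.56, 7.50 and 7.61, a change of 1.27 ± 0.05 (limma, adjusted p = 1.04e-25). GstD9, a further Delta enzyme beside GstD1 in the row, read 7.90 to 8.03 on normal food and 8.96, 9.06, 8.93 and 9.04 with PTZ, a rise of 1.01 ± 0.04 (limma, adjusted p = 3.57e-26). GstD10, next to GstD9 at the start of the row, read 4.54, 4.18, 4.62 and 4.02 against 5.07, 5.06, 5.02 and 5.26. Its arrays did not overlap either, although normal food spread from 4.02 to 4.62, and its change was 0.76 ± 0.11 (limma, adjusted p = 1.05e-07).

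GstD4 and GstD5 had the weakest calls, with limma adjusted p = 0.0494 and 0.0326. Of the 10 genes, 6 were called higher and 1 lower, where 50.3% of all probe sets were called, 23.9% as higher and 26.4% as lower. The call of GstD4 was lost in several alternative fits (limma adjusted p = 0.0514 with a replicate block). Against the mean of the 7 single-compound groups in place of normal food, PTZ was higher by 2.89 for GstD2, 0.92 for GstD3, 0.69 for GstD1, 0.59 for GstD9 and 0.29 for GstD10. The size for GstD1, GstD3, GstD9 and GstD10 thus depended on the reference more than that for GstD2. In bulk heads, a change in the number of cells that express a gene and a change in RNA per cell cannot be told apart.

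**Figure D1:**
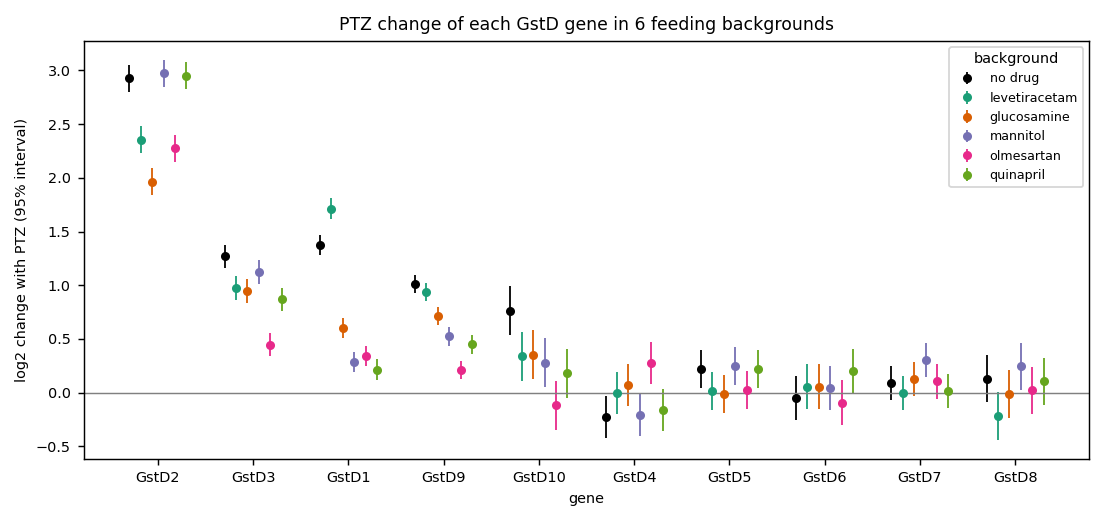
Log2 change with PTZ for the 10 genes, without a drug and within 5 drug backgrounds, with bars for the 95% confidence interval. GstD2 stays between 1.96 and 2.97 in all comparisons, while GstD1 ranges from 0.21 to 1.71 and GstD4 to GstD8 lie near 0.

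Across the whole series GstD2 separated the arrays with PTZ from those without. Its lowest array among the 28 with PTZ read 7.24 (PTZ with glucosamine), and its highest among the 30 without PTZ read 5.73 (levetiracetam). This gap of 1.51 was the rank 3 gap among 18769 probe sets, behind hll, which encodes a long-chain acyl-CoA synthetase, and Gnmt, which encodes glycine N-methyltransferase. GstD3 was also higher on every PTZ array, by a gap of only 0.04. In all, 0.533% of probe sets were higher on every PTZ array than on every other array, and 0.155% were lower. GstD1, GstD9 and GstD10 were not among them: the highest array without PTZ read 11.48 for GstD1, above the lowest PTZ array at 11.30.

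The levels of GstD2 in the diets without PTZ ran from quinapril (4.97 ± 0.04) through moxifloxacin (5.03 ± 0.03), gemfibrozil (5.27 ± 0.15), normal food (5.29 ± 0.07), glucosamine (5.33 ± 0.17), olmesartan (5.52 ± 0.08) and mannitol (5.54 ± 0.09) to levetiracetam (5.68 ± 0.04). Neighbours in this order overlapped except moxifloxacin and gemfibrozil, and mannitol and levetiracetam. After a step of 1.62 came PTZ with glucosamine (7.30 ± 0.05), oxaprozin (7.66 ± 0.05), olmesartan (7.80 ± 0.06), quinapril (7.92 ± 0.06) and levetiracetam (8.03 ± 0.11), PTZ alone (8.22 ± 0.05) and PTZ with mannitol (8.51 ± 0.06). Here oxaprozin overlapped olmesartan, quinapril overlapped levetiracetam, and levetiracetam overlapped PTZ alone.

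**Figure D2:**
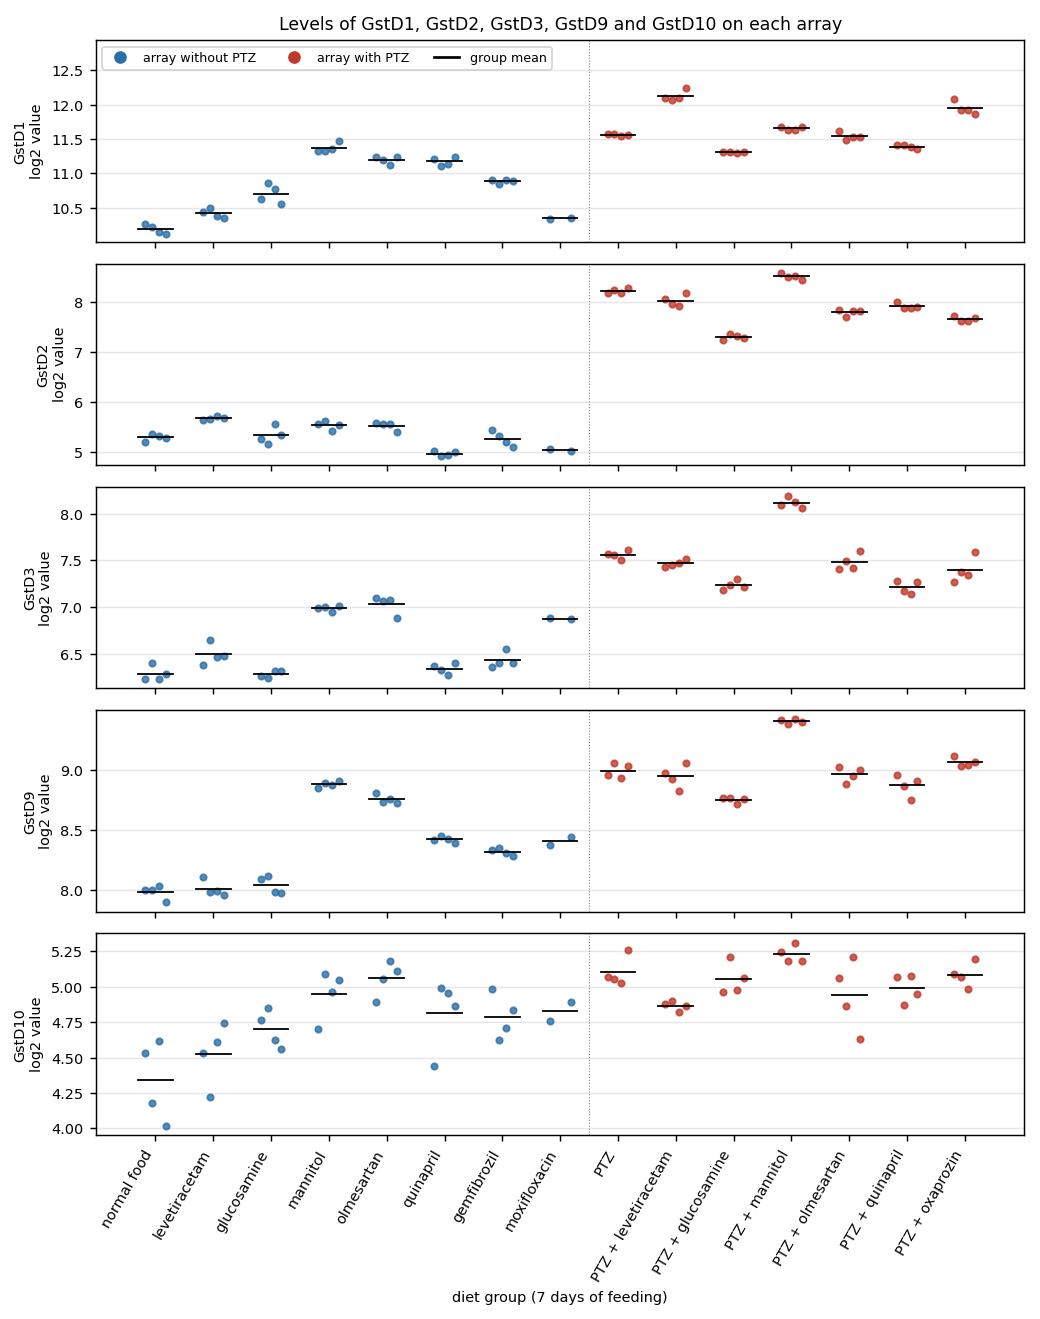
Log2 values of GstD1, GstD2, GstD3, GstD9 and GstD10 on each array in the 15 groups, with the groups along one axis. GstD2 separates into a PTZ-free range that ends at 5.73 and a PTZ range that starts at 7.24, while the other genes climb in smaller steps.

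GstD1 gave another order, with no single step between the diets. Normal food was lowest at 10.19 ± 0.07, then moxifloxacin (10.35 ± 0.00519, n = 2), levetiracetam (10.42 ± 0.07), glucosamine (10.71 ± 0.14), gemfibrozil (10.89 ± 0.03), quinapril (11.18 ± 0.06) and olmesartan (11.20 ± 0.06). PTZ with glucosamine (11.31 ± 0.00487) came below mannitol without PTZ (11.37 ± 0.07). PTZ with quinapril (11.39 ± 0.03), PTZ with olmesartan (11.54 ± 0.05), PTZ alone (11.56 ± 0.01), PTZ with mannitol (11.66 ± 0.03), PTZ with oxaprozin (11.95 ± 0.09) and PTZ with levetiracetam (12.13 ± 0.08) completed the order. Of the 14 neighbouring pairs, 6 overlapped, among them mannitol with PTZ plus quinapril.

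The range of group means was 3.54 for GstD2, 1.94 for GstD1, 1.82 for GstD3, 1.42 for GstD9 and 0.89 for GstD10. Within the 8 diets without PTZ the range of GstD1 (1.19) exceeded that of GstD2 (0.70). Within the 7 diets with PTZ it was the reverse, 0.82 for GstD1 and 1.22 for GstD2. The mean of the PTZ groups exceeded that of the others by 2.59 for GstD2 and by 0.86 for GstD1.

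**Figure D3:**
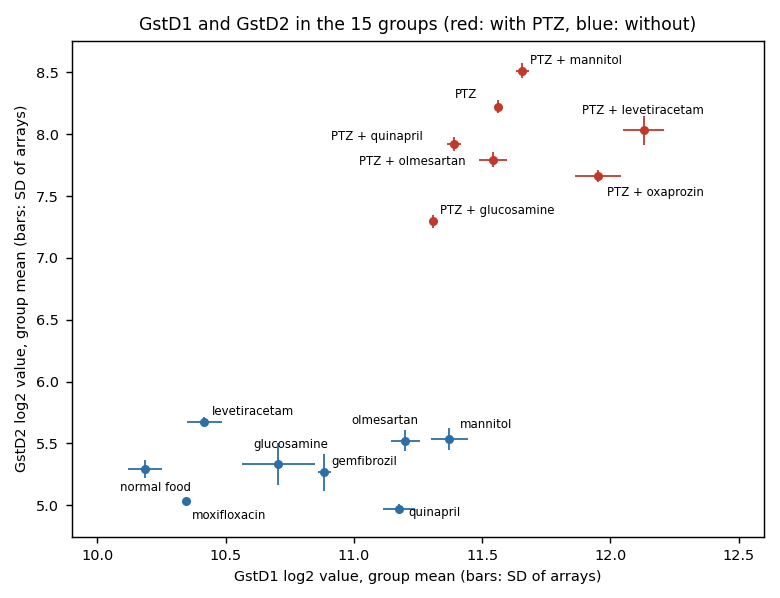
GstD1 (horizontal) against GstD2 (vertical), group means of log2 values with SD bars, red with PTZ and blue without. The blue groups range over 1.19 along GstD1 and 0.70 along GstD2, and the red groups all lie at 7.30 or more on the vertical axis.

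GstD3 lay lowest with glucosamine (6.29 ± 0.04) and normal food (6.29 ± 0.08) and highest in PTZ with mannitol (8.11 ± 0.06). Mannitol (6.99) and olmesartan (7.03) without PTZ came just below PTZ with quinapril (7.22) and PTZ with glucosamine (7.23). GstD9 ran from 7.98 ± 0.06 in normal food to 9.41 ± 0.02 in PTZ with mannitol, and for both genes 10 of 14 neighbouring pairs overlapped. For GstD10, all 14 neighbouring pairs overlapped, so its order from 4.34 ± 0.28 in normal food to 5.23 ± 0.06 in PTZ with mannitol was resolved only between distant groups.

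Over the 15 group means, GstD3 and GstD9 were the most alike members (Pearson r = 0.94), followed by GstD9 and GstD10 (0.90) and GstD2 and GstD3 (0.89). GstD1 correlated with GstD9 at 0.87 and with GstD2 at 0.77. These values describe 15 points that share the PTZ contrast. Among the other genes, those most like GstD2 were CG11425 (r = 0.986), hll (0.986) and CG7059 (0.983). Those most like GstD1 were Rpn1, a subunit of the regulatory particle of the proteasome (0.989), Tsp42Ed, a tetraspanin (0.986), and Dera, a deoxyribose-phosphate aldolase (0.981).

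The single compounds were each compared with normal food, which these comparisons share. GstD1 was higher with all 7 compounds, by 0.16 to 1.19. GstD10 was higher with 6 of them, and GstD3 and GstD9 with 5 each. GstD2 was higher with 3 and lower with 2, all within 0.38 of normal food in either direction. In each comparison 17.6% to 25.7% of all probe sets were called higher. The share of probe sets higher with as many compounds is not given here. Against the other single compounds, GstD1 was higher only with mannitol, olmesartan and quinapril, and GstD10 only with olmesartan.

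Mannitol gave the largest change of GstD1. Its arrays read 11.33, 11.33, 11.35 and 11.48, all above normal food, a change of 1.19 ± 0.05 (limma, adjusted p = 8.68e-27). GstD9 rose by 0.90 ± 0.04 (limma, adjusted p = 3.59e-24), GstD3 by 0.70 and GstD10 by 0.61. GstD2, at 5.57, 5.63, 5.41 and 5.54, rose by 0.24 ± 0.06 (limma, adjusted p = 0.000798). All its arrays exceeded the highest normal food array, yet by far less than those of GstD1 did. Of the 10 genes 6 were called higher, where 48.2% of probe sets were called (22.9% higher and 25.4% lower). The value for GstD2 was -0.08 (not called) with the 5′ minus 3′ signal of each array as a covariate. This measure, taken to reflect RNA integrity and labelling, averaged -5.50 with mannitol and -6.42 in normal food, and their arrays did not overlap. Levetiracetam, glucosamine, olmesartan and quinapril did not overlap normal food in it either. Such a fit extends a slope from within diets across this gap, so it cannot separate the measure from diet.

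Olmesartan gave a like set of changes: GstD1 rose by 1.01 ± 0.05 (limma, adjusted p = 5.25e-24), GstD9 by 0.77, GstD3 by 0.74, GstD10 by 0.72 and GstD2 by 0.23. With the 5′ minus 3′ covariate the value for GstD2 was 0.026 and not called (limma, adjusted p = 0.816). This made 5 of 10 genes higher, where 50.1% of probe sets were called (25.7% higher and 24.4% lower). Quinapril raised GstD1 by 0.99 ± 0.05 (limma, adjusted p = 1.73e-23), GstD10 by 0.47 and GstD9 by 0.44, while GstD3 was not called (0.06). GstD2 read 5.02, 4.93, 4.94 and 4.99, all below the normal food arrays, and fell by 0.32 ± 0.06 (limma, adjusted p = 1.35e-05). Its change was -0.64 with the 5′ minus 3′ covariate. The call of GstD10 with quinapril was lost with this covariate (0.43; limma, adjusted p = 0.0909). With quinapril 3 genes were higher and 1 lower, where 49.1% of probe sets were called (25.1% higher and 24% lower).

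Moxifloxacin, on 2 arrays, was a second case of members moving apart. Its arrays were all at the upper bioB level, so fits with the bioB block cannot separate that level from this diet. GstD2 read 5.05 and 5.01 and fell by 0.26 ± 0.08 (limma, adjusted p = 0.00475), while its neighbour GstD3 read 6.89 and 6.87 and rose by 0.59 ± 0.07 (limma, adjusted p = 2.26e-10). GstD10 rose by 0.49, GstD9 by 0.43 and GstD1 by 0.16, giving 4 higher and 1 lower where 37.5% of probe sets were called (17.6% higher and 19.9% lower). The fall of GstD2 was -0.24 and not called without moxifloxacin replicate 2 (limma, adjusted p = 0.0605), and -0.19 and not called with the bioB level as a block (adjusted p = 0.185). The change of GstD1 was not called in 4 of the fits without 1 array (0.14 to 0.19 over all such fits), and was 0.044 with a second quantile normalization (adjusted p = 0.602) and 0.089 with the bioB block (adjusted p = 0.482). The call of GstD10 was lost in 1 of those fits and with the bioB block (0.42; adjusted p = 0.107).

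Gemfibrozil raised GstD1 by 0.70 ± 0.05 (limma, adjusted p = 1.08e-17), GstD10 by 0.45, GstD9 by 0.33 and GstD3 by 0.14, so 4 were higher, where 46% of probe sets were called (25.3% higher and 20.8% lower). The call of GstD3 was lost with a second quantile normalization (0.065), with only the groups compared, with the 5′ minus 3′ covariate (0.12), with the bioB block (0.20) and in 3 of the fits that left out 1 array. That of GstD10 with gemfibrozil was lost with the bioB block (0.38; limma, adjusted p = 0.0871). Glucosamine raised GstD1 by 0.52 ± 0.05 (limma, adjusted p = 5.57e-13) and GstD10 by 0.36, so 2 were higher where 41.4% of probe sets were called (22.4% higher and 18.9% lower). GstD2 (0.04), GstD3 (-0.00) and GstD9 (0.06) were not called with glucosamine. The call of GstD10 with glucosamine was lost with only the groups compared (limma, adjusted p = 0.0601) and with the 5′ minus 3′ covariate (adjusted p = 0.164). It was also lost without normal food replicate 4 (0.26; adjusted p = 0.0800). Levetiracetam raised GstD2 by 0.38 ± 0.06 (limma, adjusted p = 1.43e-06), GstD8 by 0.28, GstD1 by 0.23 and GstD3 by 0.21, so 4 were higher where 38.3% of probe sets were called (21% higher and 17.3% lower). With the 5′ minus 3′ covariate the values with levetiracetam were 0.17 for GstD2 (limma, adjusted p = 0.0733), 0.15 for GstD3 (adjusted p = 0.143) and 0.19 for GstD1, of which only the last was called.

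**Figure D4:**
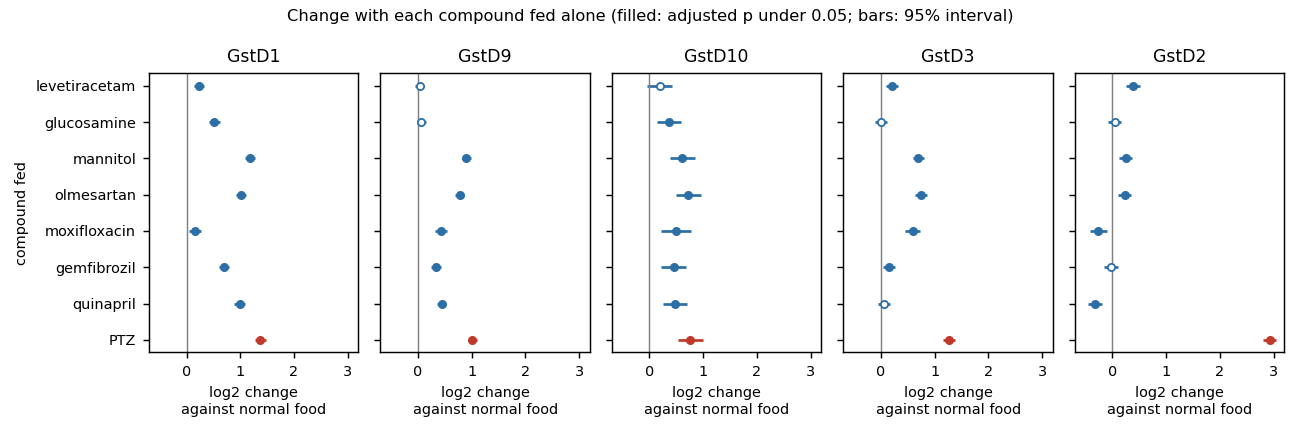
Log2 change against normal food for GstD1, GstD9, GstD10, GstD3 and GstD2 with each of the 7 single compounds and with PTZ alone, with bars for the 95% confidence interval. Among the 7 single compounds GstD1 reaches 1.19 with mannitol, while GstD2 stays between -0.32 and 0.38.

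Against the mean of the other 6 single compounds in place of normal food, the higher GstD1 held for mannitol (0.58), olmesartan (0.38) and quinapril (0.35). It turned to lower for levetiracetam (-0.53), moxifloxacin (-0.61) and glucosamine (-0.19), and was not called for gemfibrozil (0.016; limma, adjusted p = 0.807). The lower GstD2 of quinapril (-0.42) and moxifloxacin (-0.35) was present with this reference too, as was the higher GstD2 of levetiracetam (0.40), mannitol (0.24) and olmesartan (0.22).

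GstD9 was then higher with mannitol (0.56) and olmesartan (0.41) and not called with quinapril (0.019) or moxifloxacin (0.005). It was lower with levetiracetam (-0.46), glucosamine (-0.43) and gemfibrozil (-0.10). GstD3 was higher with olmesartan (0.46), mannitol (0.41) and moxifloxacin (0.28) and lower with glucosamine (-0.41), quinapril (-0.34), gemfibrozil (-0.24) and levetiracetam (-0.16). GstD10 was higher only with olmesartan (0.29) and lower with levetiracetam (-0.33), and it was not called with mannitol (0.17), moxifloxacin (0.021), quinapril (0.003), gemfibrozil (-0.025) or glucosamine (-0.13). The rises of GstD1, GstD3 and GstD9 with mannitol and olmesartan were thus called with both references.

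The PTZ combinations were compared with PTZ alone, which they share. GstD2 was lower in 5 of 6 combinations and higher with mannitol, and GstD1 was higher in 2, lower in 2 and not called in 2. With glucosamine, GstD2 read 7.24, 7.35, 7.32 and 7.28, and fell by 0.93 ± 0.06 (limma, adjusted p = 4.33e-17) from PTZ alone. All 4 arrays lay below PTZ, and still well above every diet without PTZ. GstD3 fell by 0.33, GstD1 by 0.25 and GstD9 by 0.24, so 4 genes were lower and none higher, where 24.1% of probe sets were called (11.7% higher and 12.4% lower).

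With oxaprozin GstD2 read 7.72, 7.62, 7.62 and 7.68 and fell by 0.56 ± 0.06 (limma, adjusted p = 1.18e-10). GstD1 moved the other way, at 12.08, 11.93, 11.93 and 11.87, and rose by 0.39 ± 0.05 (limma, adjusted p = 2.12e-09). GstD5 fell by 0.27 and GstD3 by 0.16, making 1 higher and 3 lower where 35.6% of probe sets were called (17.8% higher and 17.8% lower). With levetiracetam the same 2 genes again moved apart: GstD1 read 12.10, 12.07, 12.10 and 12.25 and rose by 0.57 ± 0.05 (limma, adjusted p = 2.85e-14), and GstD2 read 8.05, 7.96, 7.93 and 8.18. Its fall of 0.19 ± 0.06 (limma, adjusted p = 0.0103) had overlapping arrays and was -0.16 and not called without PTZ with levetiracetam replicate 3 (adjusted p = 0.056). It was 0.19 higher against the mean of the other combinations. GstD4 rose by 0.26 and GstD5 fell by 0.22, making 2 higher and 2 lower where 38.5% of probe sets were called (18.4% higher and 20% lower).

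The 5′ minus 3′ signal averaged -4.14 for levetiracetam with PTZ and -4.73 for oxaprozin with PTZ, against -5.67 for PTZ alone. These 2 groups had the highest values of this measure and the highest GstD1. With the measure as a covariate, GstD1 was higher than in PTZ alone by 0.47 with levetiracetam (limma, adjusted p = 0.00412) and by 0.33 with oxaprozin (adjusted p = 0.00247). GstD2 was then lower than in PTZ alone by more than without the covariate, at -0.72 with levetiracetam (limma, adjusted p = 7.2e-05) and -0.89 with oxaprozin (adjusted p = 1.77e-10). The arrays did not overlap in this measure, at -4.45 to -3.92 with levetiracetam, -4.90 to -4.53 with oxaprozin and -5.78 to -5.56 in PTZ alone. The covariate thus cannot separate the measure from diet, and no conclusion is drawn from these fits.

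With mannitol no member was called lower than in PTZ alone. GstD3 read 8.09, 8.19, 8.12 and 8.06, above every PTZ array, and rose by 0.55 ± 0.05 (limma, adjusted p = 3.76e-12). GstD9 rose by 0.41 ± 0.04 (limma, adjusted p = 1.5e-11), GstD4 by 0.30 and GstD2 by 0.29, while GstD1 (0.10) was not called. Thus 4 were higher where 33.5% of probe sets were called (14.7% higher and 18.8% lower). The rise of the dim GstD4 was not called with the bioB block (0.14, limma adjusted p = 0.605) or against the mean of the other combinations (0.005, adjusted p = 0.966). With quinapril GstD3 fell by 0.34, GstD2 by 0.30, GstD1 by 0.17 and GstD9 by 0.12, so 4 were lower where 21.5% of probe sets were called (9.82% higher and 11.6% lower). The call of GstD9 was lost in 4 of the fits that left out 1 array. It was also lost with a second quantile normalization (-0.09), with only the groups compared and with the 5′ minus 3′ covariate (-0.10). Against the mean of the other combinations GstD9 of PTZ with quinapril was called lower (-0.16), while GstD2 was at 0.06 and not called.

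With olmesartan GstD2 read 7.85, 7.70, 7.81 and 7.82 and fell by 0.43 ± 0.06 (limma, adjusted p = 2.5e-07) from PTZ alone. Against the mean of the other combinations it was at -0.089 and not called (limma, adjusted p = 0.141). GstD4 read 2.80, 2.82, 2.70 and 3.02 against 2.17, 2.30, 2.26 and 2.20 with PTZ, and rose by 0.60 ± 0.10 (limma, adjusted p = 2.69e-06). This was the largest change of any of the 5 dim genes, though at the lower end of the scale. These were the only calls, 1 higher and 1 lower, where 30.4% of probe sets were called (15.5% higher and 14.9% lower).

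For 5 drugs the effect of PTZ could be read on normal food and on the drug. GstD2 rose with PTZ in each drug background: by 2.97 ± 0.06 with mannitol (7.86-fold), 2.95 with quinapril, 2.35 with levetiracetam, 2.27 with olmesartan and 1.96 with glucosamine, each with SE 0.06. GstD1 rose by 1.71 ± 0.05 with levetiracetam, 0.60 with glucosamine, 0.34 with olmesartan, 0.28 with mannitol and 0.21 with quinapril. GstD3 rose by 0.45 (olmesartan) to 1.12 (mannitol) and GstD9 by 0.21 (olmesartan) to 0.94 (levetiracetam). GstD10 rose with levetiracetam (0.34), glucosamine (0.35) and mannitol (0.28) and was not called with olmesartan (-0.12) or quinapril (0.18). Its calls with levetiracetam, glucosamine and mannitol were lost in 1, 2 and 5 of the fits that left out 1 array. That with levetiracetam was also lost with the 5′ minus 3′ covariate (0.26, limma adjusted p = 0.629), and that with glucosamine with the bioB block (0.28, adjusted p = 0.305).

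With PTZ, 5 of 10 genes were higher on levetiracetam, where 50.5% of probe sets were called (22.7% higher and 27.9% lower). The same number was higher on glucosamine, where 31.1% were called (15.2% and 15.9%), on olmesartan, where 28.5% were (13.3% and 15.2%), and on quinapril, where 40.4% were (20.3% and 20.2%). On mannitol 7 were higher, including GstD7 at 0.30 and GstD5 at 0.25, where 43.1% were called (21.1% and 22%). No member was called lower with PTZ in any of the 5 backgrounds.

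The difference between the 2 effects of PTZ was tested as an interaction. All 5 tests share the PTZ and normal food arrays. For GstD1 the effect of PTZ was smaller with quinapril by 1.16 ± 0.07 on the log2 scale (estimate -1.16; limma, adjusted p = 5.53e-20), with mannitol (-1.09), olmesartan (-1.03) and glucosamine (-0.77), and larger with levetiracetam (0.34). In mannitol-fed heads GstD1 went from 11.33, 11.33, 11.35 and 11.48 to 11.68, 11.64, 11.63 and 11.68 with PTZ. The second set was close to that of PTZ alone, and mannitol alone had a change of 1.19 from normal food, against 1.37 for PTZ alone. The larger effect with levetiracetam was not called after a second quantile normalization (0.15; limma, adjusted p = 0.0599).

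GstD2 behaved otherwise with mannitol and quinapril. The interaction was 0.05 ± 0.09 with mannitol (95% interval -0.13 to 0.22) and 0.02 ± 0.09 with quinapril (-0.15 to 0.20), neither of them called. Against the mean effect of PTZ in the other 4 drug backgrounds, in place of that without a drug, the effect on GstD2 was larger with mannitol (0.59; limma, adjusted p = 4.74e-10) and quinapril (0.56; adjusted p = 3.87e-09). Against PTZ without a drug it was below 0 with glucosamine (-0.96 ± 0.09; limma, adjusted p = 4.61e-13), olmesartan (-0.65) and levetiracetam (-0.57). GstD9 had smaller effects of PTZ with olmesartan (-0.80), quinapril (-0.56), mannitol (-0.49) and glucosamine (-0.30), and GstD3 with olmesartan (-0.82), quinapril (-0.40), glucosamine (-0.32) and levetiracetam (-0.30). GstD10 was below 0 in all 5, from -0.88 with olmesartan to -0.41 with glucosamine, and its calls with glucosamine, levetiracetam and mannitol were lost in 8, 6 and 1 of the fits that left out 1 array.

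Counted over the 10 genes, the interaction was higher for 1 and lower for 3 with levetiracetam (35.7% of probe sets called, 16.7% higher and 19% lower) and lower for 5 with glucosamine (36.5% of probe sets called, 17.1% higher and 19.3% lower). It was lower for 3 with mannitol (44% of probe sets called, 21.9% higher and 22.1% lower), higher for 1 and lower for 5 with olmesartan (46.5% of probe sets called, 23.1% higher and 23.5% lower), and lower for 4 with quinapril (42.3% of probe sets called, 21.3% higher and 21% lower). The member that was higher with olmesartan was GstD4 (0.50). All these terms contain normal food, whose testis and gut list levels are given above. Set against the mean effect of PTZ in the other 4 drug backgrounds, many of these terms were smaller or not called. GstD1 was still lower with quinapril (-0.52), mannitol (-0.43) and olmesartan (-0.36), was not called with glucosamine (-0.036; limma, adjusted p = 0.693) and was higher with levetiracetam (1.35). GstD2 was lower with glucosamine (-0.68), olmesartan (-0.29) and levetiracetam (-0.19).

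With this reference GstD3 was lower with olmesartan (-0.53), higher with mannitol (0.32) and not called with quinapril (-0.004), levetiracetam (0.13) or glucosamine (0.09). GstD9 was lower with olmesartan (-0.45) and quinapril (-0.14), higher with levetiracetam (0.46) and glucosamine (0.18), and not called with mannitol (-0.053). GstD10 was lower with olmesartan (-0.40), and its values with levetiracetam (0.17), glucosamine (0.18), mannitol (0.09) and quinapril (-0.034) were not called. Olmesartan was the only drug with which all 5 of these genes were called lower with both references.

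A test over the 6 pairs of group means with and without PTZ, added after the data were seen, takes diets in place of arrays as its units. GstD2 was higher by 2.57 ± 0.15 (limma, adjusted p = 0.00176), GstD3 by 0.94 ± 0.10 (adjusted p = 0.00795) and GstD9 by 0.64 ± 0.11 (adjusted p = 0.0297). GstD1 (0.75 ± 0.21, adjusted p = 0.112) and GstD10 (0.30 ± 0.10, adjusted p = 0.18) were not called. All 3 calls were higher, where 2.95% of probe sets were called (1.18% higher and 1.77% lower).

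The 5 dim genes varied little. The range of their group means was 0.60 for GstD4, 0.41 for GstD5, 0.38 for GstD8, 0.30 for GstD7 and 0.22 for GstD6, and the SD within a group had medians of 0.10 to 0.13. All neighbouring groups overlapped for each of them. GstD6 was called in 0 of the 24 comparisons in limma (0 also at an unadjusted p under 0.05), and GstD7 only for PTZ with mannitol against mannitol. The calls of GstD4 and GstD5 with PTZ against normal food were lost in 6 and 5 of the fits that left out 1 array, that of GstD8 with levetiracetam in 6, and those of GstD4 and GstD5 in PTZ with levetiracetam in 5 and 6. The rise of GstD4 in PTZ with olmesartan against PTZ alone was called in all of them. Such probe sets cannot show whether a transcript is absent or below what the array resolves.

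**Figure D5:**
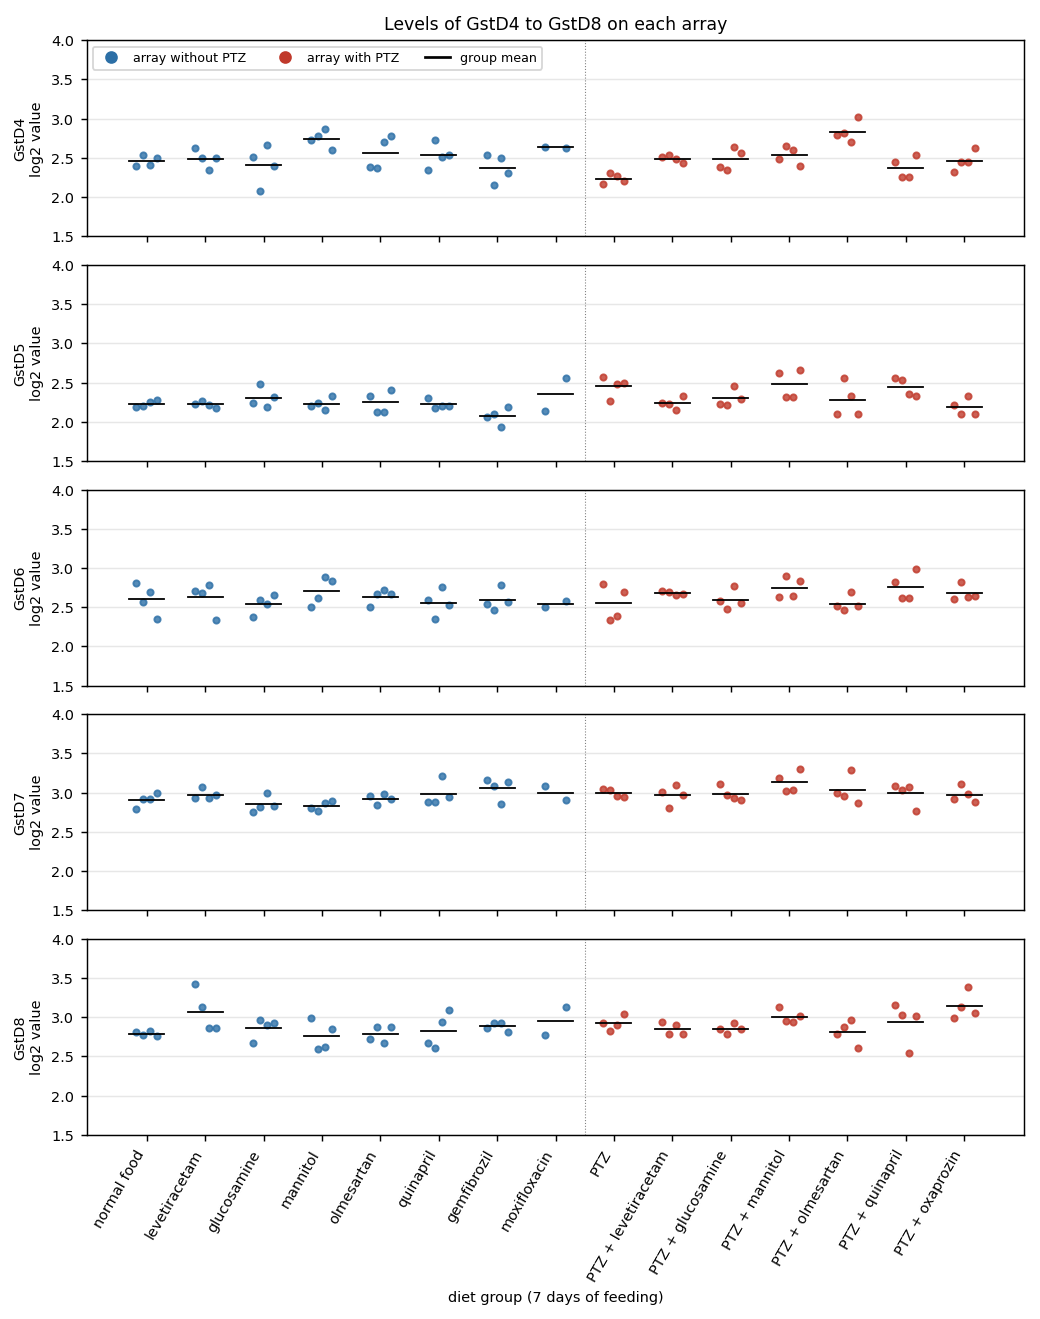
Log2 values of GstD4 to GstD8 on each array in the 15 groups. Neighbouring groups in the order of means overlap, while distant ones need not: GstD4 lies at 2.70 to 3.02 in PTZ with olmesartan and at 2.17 to 2.30 in PTZ alone.

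Genes of the surrounding pathway were read from lists chosen with earlier results of these data known. Of 26 measured glutathione S-transferases outside the 10 (27 listed, GstD11 and the other classes), 22 rose and 1 fell with PTZ against normal food (50.3% of all probe sets called), with a median of 0.60 against -0.02 over all probe sets. The largest changes were GstE6 (1.25), GstE1 (1.18) and GstE5 (1.05) of the insect Epsilon class and GstO3 (0.98) of the Omega class. GstD11, the remaining Delta gene, was at 0.15 and not called, and GstS1, of the Sigma class, fell by 0.24. With mannitol alone 22 of the 26 rose and 1 fell (48.2% of all probe sets called).

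Within drug backgrounds PTZ raised 12 and lowered 11 of the 26 with mannitol (43.1% of all probe sets called), 11 and 11 with quinapril (40.4%), 6 and 4 with olmesartan (28.5%), 13 and 3 with glucosamine (31.1%), and 16 and 5 with levetiracetam (50.5%). No test of a difference between these genes and the Delta class was made.

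Of 13 measured genes of the CncC and Keap1 pathway and its reported targets (16 listed), 9 rose and 2 fell with PTZ (50.3% of all probe sets called), with a median of 0.69. The largest were the cytochrome P450 genes Cyp6a8 (2.87), Cyp6w1 (2.48) and Cyp6a2 (2.20), whose enzymes oxidise foreign compounds, and Jheh2 (1.83), an epoxide hydrolase. The regulators themselves, named here for their role after their values were seen, moved less than these: cnc fell by 0.24, Keap1 rose by 0.21 and maf-S, which encodes the small Maf partner of CncC, rose by 0.85. Their activity is set largely at the protein level, which these arrays do not measure.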

How the data were processed

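Total RNA of adult heads was hybridised to Affymetrix Drosophila arrays, 58 in 15 groups taken from the labels. The authors deposited log2 values of probe set intensity; per the submitters' processing notes the tools were RMA and limma, with no versions. Other settings are not stated there. RMA equalises array distributions, so changes are relative to each array. Control probe sets (183) were left out, and 18769 were tested.

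All 58 arrays entered a single model in limma 3.58.1 under R 4.3.3, with 1 mean for each diet. Variances were moderated by eBayes (prior degrees of freedom 3.88, residual 43). Benjamini-Hochberg adjustment was made over all probe sets within each of 24 comparisons, and called means an adjusted p under 0.05. Tested on simulated data for PTZ against normal food, the fit recovered 46% of log2 changes of 0.25, 90% of 0.5 and 100% of 1 and 2 (18769 probe sets). Only 50 probe sets were changed at each size there, whereas 50.3% of probe sets were called in the data. The adjusted p cut-off thus differs, and these shares need not hold for the data. Arrays give no counts, so their number limits the precision.

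Symbols came from the platform annotation (13647 probe sets with 1 symbol, 402 with several, 4720 with none), of which 13544 matched RefSeq (Release 6 plus ISO1 MT), used for names and gene order only. The members and gene lists were chosen with earlier results of these data known. Named genes were all 10 members, up to 4 genes per list with the largest absolute change with PTZ, and the 3 genes with the highest correlation with GstD1 and with GstD2. Same-numbered replicates of different groups correlated at a median of 0.000234 in their deviations, so numbers were not taken as pairs. Alternatives varied the variance prior, normalization, dim filter, arrays in the fit, replicate block, 5′ minus 3′ covariate, bioB block and reference, and left out each array in turn. Figures were drawn with matplotlib 3.10.9 in Python 3.11.15.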

Additional observations from a re-analysis of the deposited data

Results flagged for a closer look

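In 3 of 140 groups of 4 arrays, 1 array stood apart from the other 3 by Dixon's test, where chance flags about 1 in 20 groups (7 here). GstD1 read 12.25 in PTZ with levetiracetam replicate 4, against 12.07 to 12.10 on the others. GstD1 read 11.48 in mannitol replicate 4, against 11.33 to 11.35. GstD2 read 5.40 in olmesartan replicate 4, against 5.55 to 5.58. That array was the olmesartan array at the upper bioB level.

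The effect of PTZ differed between flies fed a drug and flies fed normal food in 22 of 50 member tests of an interaction term (limma, log2 scale). In the 5 terms 35.7% to 46.5% of all probe sets were called. With levetiracetam the effect was larger for GstD1 (0.34) and smaller for GstD2 (-0.57), GstD3 (-0.30) and GstD10 (-0.42). With glucosamine it was smaller for GstD1 (-0.77), GstD2 (-0.96), GstD3 (-0.32), GstD9 (-0.30) and GstD10 (-0.41). With mannitol it was smaller for GstD1 (-1.09), GstD9 (-0.49) and GstD10 (-0.48). With olmesartan it was smaller for GstD1 (-1.03), GstD2 (-0.65), GstD3 (-0.82), GstD9 (-0.80) and GstD10 (-0.88) and higher for GstD4 (0.50). With quinapril it was smaller for GstD1 (-1.16), GstD3 (-0.40), GstD9 (-0.56) and GstD10 (-0.58).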

How the results depend on the processing

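Of 108 called member changes, all kept their direction under a variance trend (3 lost their call), a second quantile normalization (9 lost), only the groups compared (11 lost), the replicate block (2 lost) and the bioB block (9 lost). The size of the bioB block rests on the olmesartan and quinapril arrays alone, so its lost calls cannot separate bioB from diet. The dim filter kept 94 of 94. Leaving out each array lost 83 of 1030 calls, over 25 changes, and reversed none. The mean over probe sets of a gene was not run, since each member has 1 probe set. With the replicate block, which moved no count of calls by over 1.5 times except the 1 lower call with PTZ against normal food (0), no call of GstD1, GstD2, GstD3, GstD9 or GstD10 was lost.

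Counts summed over the comparisons of a kind moved as follows; the cause was not tested. The 6 higher calls with PTZ became 3 over 6 pairs of group means, and the 1 lower call became 0 there and with the variance trend, quantile normalization and dim filter, which leaves GstD4 out. For single compounds the 28 higher calls became 18 with the 5′ minus 3′ covariate and 14 against the other compounds, and the 2 lower calls became 1 with the bioB block, 3 with the 5′ minus 3′ covariate and 14 against the other compounds. For combinations 8 higher calls became 5 with the dim filter. For PTZ within drug backgrounds 0 lower calls became 1 with quantile normalization and with only the groups compared. For the interactions 2 higher calls became 1 with quantile normalization and dim filter, 5 with the 5′ minus 3′ covariate and 8 against the other backgrounds, and 20 lower calls became 11 against the other backgrounds. Leaving out arrays gave 5 to 6 higher and 0 to 1 lower calls for PTZ, 25 to 28 and 1 to 2 for single compounds, 7 to 10 and 11 to 15 for combinations, 25 to 28 and 0 to 1 within backgrounds, and 2 to 3 and 17 to 21 for the interactions.

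Directions that turned, with the 5′ minus 3′ covariate, were GstD2 with mannitol (-0.076) and GstD4 (-0.13) and GstD5 (0.014) in PTZ with levetiracetam. Against other groups as the reference they were GstD1 (-0.53) and GstD3 (-0.16) with levetiracetam, GstD1 (-0.19) and GstD10 (-0.13) with glucosamine, GstD1 with moxifloxacin (-0.61), and GstD3 (-0.24), GstD9 (-0.10) and GstD10 (-0.025) with gemfibrozil. In combinations they were GstD2 (0.19) and GstD4 (-0.044) with levetiracetam and GstD2 with quinapril (0.063). In interactions they were GstD3 (0.13) and GstD10 (0.17) with levetiracetam, GstD3 (0.093), GstD9 (0.18) and GstD10 (0.18) with glucosamine and GstD10 with mannitol (0.092). The turns with the 5′ minus 3′ covariate were in groups whose arrays did not overlap their reference in this measure. The covariate thus cannot separate the measure from diet. GstD4 to GstD8 lie near the lower end of the scale, which limits what can be read from them.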

Other observations

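Genes that supply glutathione, the cosubstrate of the transferases, and NADPH were called in both directions. Of 10 measured (14 listed), 4 rose and 3 fell with PTZ against normal food, with a median log2 change of 0.08 against -0.02 over all probe sets, of which 50.3% were called (23.9% higher and 26.4% lower). The largest were TrxT, a thioredoxin known from testis (-1.10), Idh, which encodes an NADP-linked isocitrate dehydrogenase (0.84), Men, the malic enzyme (0.37), and Trx2, a thioredoxin (0.28). The level of TrxT fell together with the testis list described above, and the part of that tissue in it was not tested. Within the mannitol background 4 rose and 5 fell with PTZ, where 43.1% of probe sets were called, and within olmesartan 2 rose and 5 fell, where 28.5% were called.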
